A study of Mus musculus with 10 samples.

Results

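The genes described here are the mouse major histocompatibility complex (MHC) genes, which carry names starting with H2-, and 9 partners that make peptides and load them onto MHC molecules or switch the genes on. All gene names on the array that start with H2- were taken, together with B2m, Tap1, Tap2, Tapbp, Cd74, Ciita, Psmb8, Psmb9 and Nlrc5. This gave 46 of 28095 gene names, measured by 73 of 41174 probes. Class I accounted for 24 of the 46 genes, 3 of them classical and 21 nonclassical, and class II for 11 with its chaperone Cd74. A further 3 names, H2-Ke2, H2-Ke6 and H2-gs10, were counted apart, because the first pair is named for its place in the complex and H2-gs10 is an older name of a class I gene, H2-Q4 in RefSeq. Another 2 probes carry an H2- name only in an older annotation of the array, and they are given by the names in the scanner files, LOC633417 and EG547347.

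The study asked which genes change within 1 day when the R-spondin receptors Lgr4 and Lgr5 are deleted from mouse small intestine, or when R-spondin itself is withheld. RNA was measured on 10 two-colour Agilent arrays, which compare a Cy5 and a Cy3 sample by the brightness of 60-base probes. Crypts of AhCre_Lgr4fl/fl_Lgr5 fl/fl mice were compared with wild-type control crypts on 4 arrays, 2 biological replicates each hybridised with both dye orientations. Organoids, crypt cultures of epithelium grown without other tissue, were compared with a commercial mouse reference RNA on the other 6 arrays.

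The crypts came from mice with P450Cre-driven deletion, and the labels name neither the agent that induced it nor the genotype of the control crypts beyond wild type. The deleted organoids, 2 cultures, came from VillinCre_Lgr4fl/fl-Lgr5fl/fl mice, in which the Cre is driven by the epithelial villin promoter. The 2 wild-type cultures came from VillinCre_wt mice and had tamoxifen for 1 day, so Cre was present in both groups. For R-spondin withdrawal 1 culture was kept in EGF, Noggin and R-spondin (ENR) and 1 was kept for 1 day without R-spondin (EN). The labels give no mouse strain, age or sex. MHC genes differ between inbred strains in number and sequence more than most genes do. Since deleted and wild-type samples came from different mice, an inherited difference at the MHC and an effect of the deletion cannot be told apart in the crypts or in the deletion organoids. Donor mice of the R-spondin cultures are not given in the labels either.

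Class I molecules pair a heavy chain with the light chain B2m and show peptides from inside the cell to CD8 T cells. The peptides are cut by the proteasome, in which interferons add the subunits Psmb8 and Psmb9, pumped into the endoplasmic reticulum by Tap1 and Tap2 and loaded with the help of Tapbp. Class II molecules show peptides from endosomes to CD4 T cells, are guarded by the invariant chain Cd74 and are exchanged onto peptides by H2-DM, and the coactivators Ciita and Nlrc5 drive class II and class I genes respectively. Professional antigen-presenting cells make class II constantly, whereas intestinal epithelium makes it under interferon gamma and makes some nonclassical class I genes, such as H2-T3, as part of its identity.

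The probes that carry the results are shown first, because class I genes are so alike that a probe can report more than 1 of them. The class I genes that stood out in organoids were read by the probes below. The first line is the stretch of 30 bases, in capitals, that 2 overlapping H2-Bl probes shared, at chr17:36217089-36217148 on the minus strand of mm9 for the first of them. The next 3 are whole probes, the other H2-Bl probe at chr17:36220441-36220687 (minus), the H2-T3 probe at chr17:36323613-36323966 (minus) and an H2-Q10 probe at chr17:35607907-35607966 (plus). Exon and UTR annotation of mm9 was not used here.
H2-Bl, 2 probes: GCTCAAATCTTTGAGCTGAGGGTTGATTAG
H2-Bl, other probe: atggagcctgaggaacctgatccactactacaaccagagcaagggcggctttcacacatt
H2-T3: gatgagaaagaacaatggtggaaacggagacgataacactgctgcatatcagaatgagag
H2-Q10: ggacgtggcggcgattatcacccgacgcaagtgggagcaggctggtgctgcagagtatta

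Among the 39 class I probes, 9 of 715 pairs from different genes shared at least 24 bases of some aligned stretch of 30, and 15 probes belonged to such a pair. None of the 160 class II pairs did. Several of these pairs carry values given below. The brightest H2-Q10 and H2-Q5 probes shared 30 of 30 bases, the brightest H2-D1 and H2-Q2 probes 29, and probes of H2-Q7 and H2-T23 also 29. The other H2-Bl probe and the H2-Q10 probe printed above each shared 27 of 30 with an H2-K1 probe. The pair printed here, because both probes differed widely in organoids, is an H2-Bl probe at chr17:36217119-36217178 (minus) and an H2-Q10 probe at chr17:35611365-35611424 (plus), which shared 27 of 30 bases, shown in capitals. Places on mm9 do not always follow the names. The H2-D4 probe lies at chr17:35400857-35400910 (plus), near the H2-D1 probe at chr17:35403132-35403191 (plus). The second H2-Q2 probe lies at chr17:35460007-35460066 (plus), near the H2-Q1 probe at chr17:35461951-35462010 (plus). The H2-Q5 probe lies at chr17:36246864-36247298 (minus), between the H2-Bl and H2-T3 probes. The values of class I probes are therefore uncertain as values of single genes.
H2-Bl stretch: ATAAGAATCTGaATGTGAACTTgATTGcTC
H2-Q10 stretch: ATAAGAATCTGgATGTGAACTTtATTGtTC

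For H2-Ab1 and H2-K1, the stretch of 30 bases in which a pair of probes was most alike is shown. Within it the probes differ by a pair of bases, and alleles can differ in this way. The remaining bases of these probes were not compared. For H2-Ab1 the second probe carries T5A and T20A, and for H2-K1 it carries C18T and T19G, counted from 1 at the 5' end of the stretch, with the differing bases in capitals. The first H2-Ab1 stretch lies in the probe at chr17:34401723-34401782 (plus) and the first H2-K1 stretch in the probe at chr17:34133055-34133114 (minus), while the files place neither second probe on mm9. In the crypts both H2-Ab1 probes gave the same mean log2 ratio of deleted over wild type, 1.38. The H2-K1 probes gave 0.61 and 0.46.
H2-Ab1, first probe: ttcaTgggcgagtgctactTcaccaacggg
H2-Ab1, second probe: ttcaAgggcgagtgctactAcaccaacggg
H2-K1, first probe: accttgattgttatcatCTtgacctagggc
H2-K1, second probe: accttgattgttatcatTGtgacctagggc

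Promoters of the members were searched for short motifs of MHC promoters, so the shares below are descriptions. Neither binding nor regulation was measured. RefSeq (GRCm38.p6) gave the promoter, 250 bases before to 50 after the start, of 34 members, among 27025 gene symbols. The pentamer ATTGG, the core of the Y box bound by NF-Y in MHC promoters, stood on either strand in 30 of 34 members, in 16 of 18 class I and 8 of 8 class II genes, against 41.1% of all promoters. The class I interferon element TTTCACTTC was in 6 of 34 against 0.596%, the kappa B core GGGATTCC in 3 of 34 against 1.23%, and the broader GAAANNGAA in 3 of 34 against 9.76%. The X2 core TGACGTCA was found in 1 of the 34 promoters, that of H2-Aa, and in 2.03% of all. These motifs were picked with the H2-K1 promoter in view, and none of their letters overlap in the stretches shown. Stretches of 150 bases are printed with the matches in capitals (CCAAT is ATTGG on the other strand): H2-K1 at chr17:34000348-34000497 (minus), H2-D1 at chr17:35262944-35263093 (plus), H2-Aa at chr17:34287824-34287973 (minus) and H2-T3 at chr17:36190152-36190301 (minus), all GRCm38.p6. No match was found in the H2-T3 promoter, which says only that these letters are not in its window.
H2-K1 promoter: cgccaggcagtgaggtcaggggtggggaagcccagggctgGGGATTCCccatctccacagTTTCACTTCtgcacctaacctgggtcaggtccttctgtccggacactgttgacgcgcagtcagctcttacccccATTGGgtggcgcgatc
H2-D1 promoter: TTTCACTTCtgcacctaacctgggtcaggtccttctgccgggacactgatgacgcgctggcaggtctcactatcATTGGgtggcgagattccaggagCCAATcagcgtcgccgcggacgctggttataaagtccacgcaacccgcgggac
H2-Aa promoter: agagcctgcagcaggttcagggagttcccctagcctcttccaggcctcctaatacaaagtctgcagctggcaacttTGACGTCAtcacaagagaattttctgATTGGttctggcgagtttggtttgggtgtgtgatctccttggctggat
H2-T3 promoter: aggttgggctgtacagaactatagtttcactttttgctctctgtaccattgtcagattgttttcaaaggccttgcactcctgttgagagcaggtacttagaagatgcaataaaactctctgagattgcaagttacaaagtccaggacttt

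The arrays differed in quality in ways that touch these genes. In Cy5, 40.2% to 63.1% of gene spots were well above background, and no spot was marked as saturated. On the 4 deletion organoid arrays the Cy3 reference channel had a negative control median of 5883 to 6564, against 92.03 to 117.4 on the others, and 3.66% to 4.26% of its spots were above background. Organoid values are therefore differences of the log2 Cy5 signal, with the Cy5 over Cy3 ratio beside them. The dye-swapped arrays correlated at r = 0.27 over 36615 probes in crypt replicate 1 and at 0.88 over 39208 in replicate 2. Lgr4 and Lgr5 were lower in deleted crypts by log2 values of -1.56 and -1.68, and Lgr4 was at -3.57 in deleted organoids. Epithelial markers were above background in every setting, 10 of 11 in crypts and in deletion organoids and 8 of 11 in the R-spondin cultures. Of the T cell markers 14 of 14 were above background in the crypts on at least 1 array, 5 of 14 in the deletion organoids and 9 of 14 in the R-spondin cultures. In the latter 7 of 7 leukocyte, 12 of 14 myeloid and dendritic and 8 of 9 B cell markers were too.

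A gene entered the test if its brightest probe exceeded background clearly on all arrays of 1 group or more. This left 29 of the 46 members in crypts, 25 in deletion organoids and 29 in the R-spondin cultures. Entry through 1 group favours members that are high there, so the counts below are descriptions. The members left out were mostly H2-M genes (H2-M1, H2-M9, H2-M11 and H2-M10.1 to H2-M10.6), H2-T24, and the class II genes H2-Ea, H2-Eb2, H2-DMb2 and H2-Ob, none of which cleared background on all arrays of a group in any setting where its spots were usable. Nlrc5 and H2-Oa were dim in crypts and deletion organoids, H2-Aa in both organoid settings, and Ciita and H2-Eb1 in the deletion organoids. Unusable spots removed H2-Q1 from the crypts, H2-D4 and Cd74 from the deletion organoids, and H2-T3, Psmb9 and H2-M10.2 from the R-spondin cultures.

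In the crypts, 1 day after deletion, nearly every measured MHC gene was higher in the deleted sample, by small amounts for class I and by larger, uneven amounts for class II. Of 29 members, 28 had a mean log2 ratio above 0, with a median of 0.44 against -0.02 over all 12252 genes. None passed an adjusted p of 0.05 in limma, where 0.0490% of all genes did as higher. At an unadjusted p under 0.05, 8 members were higher and 0 lower, against 6.42% of all genes as higher. A p above the threshold does not show that a gene was the same in both groups. The p-values rest on 2 replicates, so they have little power against the spread between them.

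Class I genes were moderately higher, with close medians in the 2 replicates but uneven values for some single genes. All 13 tested had a ratio above 0, with a median of 0.44, and the median was 0.49 in replicate 1 and 0.41 in replicate 2. Several of the 13 are read by probes that share most bases of a stretch. Class I counts and medians, here and below, are therefore not of independent readings. H2-K1, a classical heavy chain, read 0.53 and 0.44 on the arrays of replicate 1 and 0.58 and 0.87 on those of replicate 2. All 4 values lay above 0, with a mean of 0.61 (SE 0.22, limma adjusted p 0.337), a 1.52-fold difference. H2-D4, a classical name whose probe lies near the H2-D1 probe, read 0.74, 0.72, 0.44 and 0.42 in the same order, mean 0.58. H2-D1, the other classical heavy chain, averaged 0.34 on 3 usable arrays.

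H2-Q8, a nonclassical gene of the Q region, stood apart from the other class I genes. It read 0.52 and 0.93 on the arrays of replicate 1 and 1.95 and 1.85 on those of replicate 2. Both replicates were high, the second much more than the first. The mean was 1.31 (SE 0.32, limma adjusted p 0.230), a 2.48-fold difference, with 0.72 in replicate 1 and 1.90 in replicate 2.

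H2-T22, whose product is a ligand of gamma delta T cells, read 0.88, 0.02, 0.80 and 0.58, so 1 array of replicate 1 was near 0 while the other 3 were not (mean 0.57). H2-Q2 read 0.65 on 1 array of replicate 1 and 0.38 and 0.44 on replicate 2, mean 0.53. H2-Q7, which encodes a Qa antigen, read 0.28, 0.73, 0.52 and 0.42, mean 0.49. These genes were higher in both replicates and did not pass the test. The remaining class I means were 0.44 for H2-Q5, 0.38 for H2-Q10, 0.29 for H2-T23, 0.29 for H2-T3, 0.28 for H2-Bl and 0.24 for H2-M3. H2-Bl was not alike in the replicates, at 0.59 and -0.02, nor was H2-T23, at 0.03 and 0.54. H2-gs10, the older name of H2-Q4, was at 0.54.

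**Figure D1:**
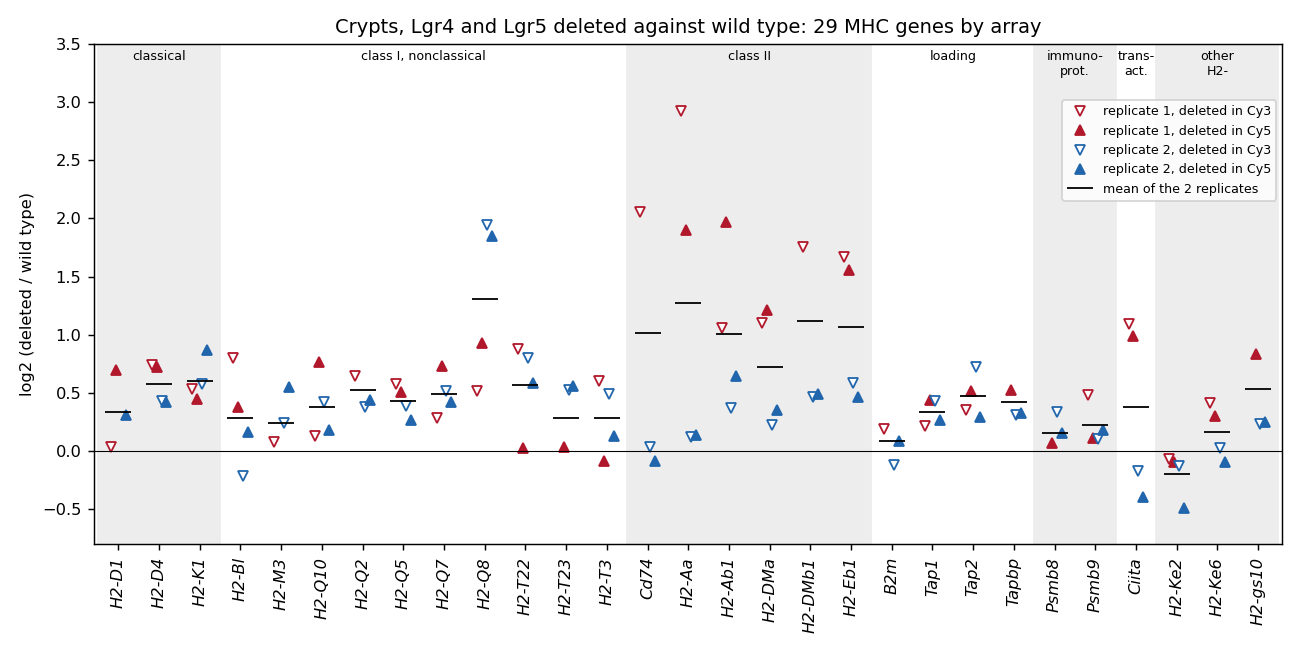
Log2 ratio of deleted over wild type in crypts (vertical axis) for the 29 tested genes, grouped by class, on each of the 4 arrays. Red triangles are replicate 1 and blue triangles replicate 2, open where the deleted RNA was in Cy3 and filled where it was in Cy5, and the bar is the mean of the 2 replicates. Class I means lie between 0.24 and 0.61, except H2-Q8 at 1.31, while single arrays scatter more and some, as for H2-Bl, lie below 0. The red class II symbols lie well above the blue ones.

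Class II genes had larger ratios that split by replicate. All 6 tested were above 0 with a median of 1.04, but it was 1.68 in replicate 1 and 0.39 in replicate 2. Fitted without replicate 1 the class II median was 0.48, and without replicate 2 it was 1.61. H2-Eb1, a class II beta chain, read 1.67 and 1.56 in replicate 1 and 0.59 and 0.47 in replicate 2. Both replicates were above 0 and the 2 dyes were close within each, with a mean of 1.07 (SE 0.31, limma adjusted p 0.264). H2-Ab1, the other class II beta chain, read 1.06, 1.97, 0.37 and 0.64 on its brightest probe, mean 1.01 (SE 0.30, limma adjusted p 0.273). Its other 3 probes each averaged 1.38, and on the arrays of replicate 2 they read between 0.76 and 1.22. H2-Ab1 was thus higher on all 4 arrays with each of its 4 probes.

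The peptide exchange genes followed the same split. H2-DMb1 read 1.75 on the 1 usable array of replicate 1 and 0.47 and 0.49 on replicate 2, mean 1.12. H2-DMa was at 1.16 in replicate 1 and 0.29 in replicate 2, mean 0.73, with both arrays of each replicate above 0. For the alpha chain H2-Aa the replicates did not look alike, at 2.41 and 0.13, and the wild-type signal was above background on 3 of 4 arrays. Cd74, the invariant chain, read 2.06 on 1 array of replicate 1 and 0.04 and -0.08 on replicate 2. Ciita, the class II coactivator, was at 1.04 in replicate 1 and -0.28 in replicate 2. Cd74, H2-Aa and Ciita were therefore clearly higher in 1 of the 2 replicates.

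Genes of peptide supply had the smallest median of the 3 groups. The light chain B2m was at 0.09 (replicates 0.19 and -0.02). Tap2 was at 0.47, Tapbp at 0.42 and Tap1 at 0.34, while the immunoproteasome subunits Psmb9 and Psmb8 were at 0.22 and 0.16. All 6 were above 0 with a median of 0.28 and none had an unadjusted p under 0.05. The second Tapbp probe read -0.07 and another B2m probe -0.28, so the gene values rest on the brightest probe. H2-Ke6, a steroid dehydrogenase gene, was at 0.16 and H2-Ke2, a prefoldin gene now named Pfdn6, at -0.19.

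Other genes of the same pathways lay on both sides of 0. Of 13 further class I pathway genes 12 were tested, among them the chaperones Calr, Canx and Pdia3, and 0 had an unadjusted p under 0.05 in either direction, with a median of -0.27. Pdia3 was at -0.50, Lnpep at -0.58, Cd1d1 at -0.32 and Fcgrt at 0.36. Of 10 further class II pathway genes 6 were tested and 0 had such a p, with a median of 0.20 and Ifi30, a lysosomal thiol reductase, highest at 0.42. The standard proteasome subunits Psmb5, Psmb7 and Psmb6, which the immunosubunits replace, were at 0.46, 0.33 and 0.20.

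Most tested markers of T cells and leukocytes were higher in the same deleted crypts, while myeloid and B cell markers were mixed. Of 11 T cell markers tested, 10 had an unadjusted p under 0.05, with a median of 1.79 that was 1.60 in replicate 1 and 2.21 in replicate 2. Ccl5, Cd7, Gzma and Cd3d, which mark intraepithelial T cells, lay between 1.70 and 2.46. The summed signal of 12 of the list's 14 genes was 6452 to 9198 in wild type and 21870 to 38410 in deleted crypts over the arrays. Of 6 leukocyte markers tested 5 were above 0, all but Lcp1 at -0.10, and 3 had such a p. The medians were 1.11 and 1.37 in the replicates, and the summed signals were 2990 to 3611 in wild type and 6297 to 8240 in deleted crypts. Of 5 myeloid and dendritic markers tested 3 did, Tyrobp, Mpeg1 at 0.94 and Fcer1g at 0.87, with medians of 0.71 and 1.02, although the summed signal of the list was lower in the deleted sample on 3 of 4 arrays, at 44200 to 64150 in wild type and 19200 to 63410 in deleted crypts. Among 3 B cell markers, Cd79b was at 1.15, Ms4a1 at 0.13 and Blnk at -0.41. Stromal markers went the other way, with a median of -0.93 over the 4 tested.

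The T cell, leukocyte and myeloid medians were higher in replicate 2 than in replicate 1, whereas class II was higher in replicate 1. The summed signal of 10 class II genes, without Cd74, was higher in the deleted sample on all 4 arrays. It ran from 5056 to 10980 in wild type and from 6678 to 24810 in deleted crypts. In bulk RNA a change in the number of cells of a type and a change in RNA per cell cannot be told apart. The part of the immune cells in the MHC values was not tested.

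**Figure D2:**
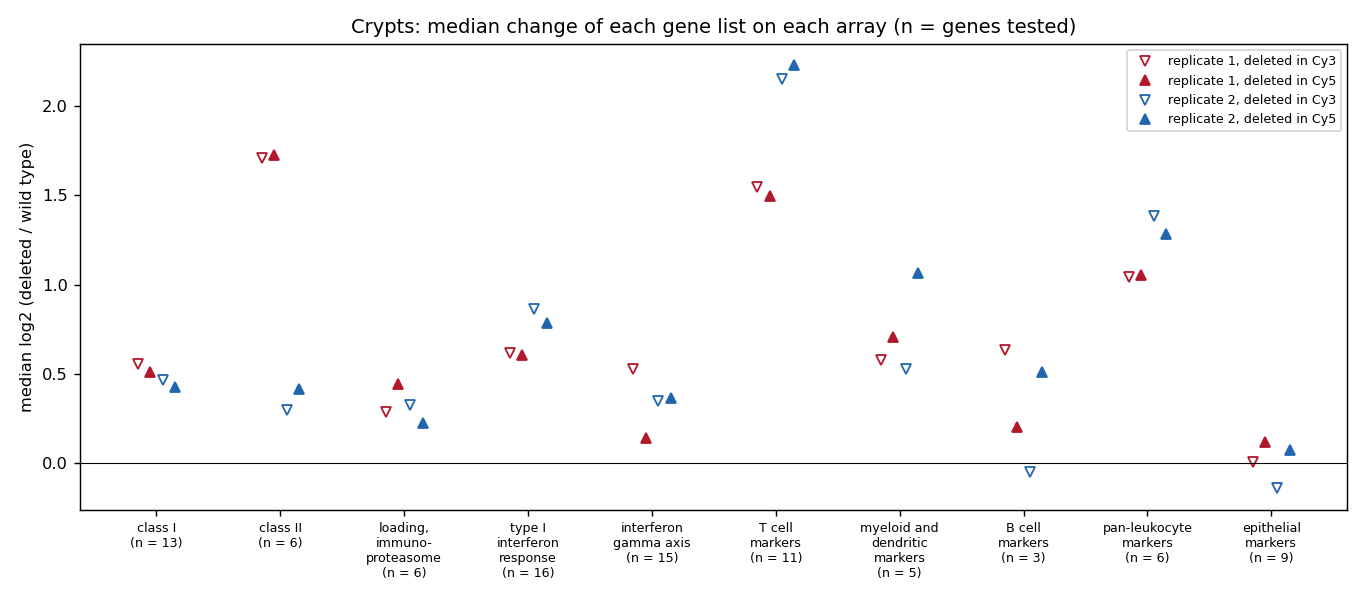
Median log2 ratio of deleted over wild type in crypts (vertical axis) for class I, class II, loading genes and 7 lists of other genes, on each of the 4 arrays, with symbols as in the plot by gene. The class II symbols of replicate 1 (near 1.7) lie far above those of replicate 2 (0.30 and 0.41), while T cell markers are higher in replicate 2.

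Interferon genes were also higher. Of 16 type I interferon response genes tested, 10 had an unadjusted p under 0.05, with medians of 0.75 and 0.83 in the replicates, and Oasl1, Oasl2, Usp18 and Zbp1 lay between 1.28 and 1.40. Of 15 genes of the interferon gamma axis 5 did, among them Igtp at 1.49, Ido1 at 1.40, Gbp3 at 1.06 and Irgm2 at 0.93. The median of that list was 0.30. None of these had an adjusted p under 0.05, and their part in the MHC values was not tested.

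In the deletion organoids 1 nonclassical class I gene, H2-Bl, rose steeply, and a small group made up of H2-T3, the immunoproteasome and B2m was higher in both deleted cultures. H2-Q8 and H2-Q10 were also higher in both deleted cultures, by less, and most class II genes were not above background. Of 25 members tested 22 were above 0, with a median of 0.34 against 0.02 over all 13323 genes. With limma 1 member passed an adjusted p of 0.05, against 0.0300% of all genes as higher. At an unadjusted p under 0.05, 8 were higher and 0 lower, against 3.48% of all genes as higher.

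H2-Bl, a class I gene named from blastocysts, had Cy5 signals of 645 and 624 in the wild-type cultures and 9848 and 11083 in the deleted ones. The groups did not overlap and replicates within a group were close. The log2 difference was 4.04 (SE 0.21, limma adjusted p 0.0181), a 16.5-fold rise, and the overlapping second probe gave 4.12. The remaining probe, which shares 27 of 30 bases with an H2-K1 probe that differed by 0.34, had signals of 469 and 695 in wild type and 3179 and 3351 in deleted cultures, a difference of 2.51. By the Cy5 over Cy3 ratio, in which the Cy3 channel was faulty, the difference was 1.71 (adjusted p 0.593).

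H2-T3, which encodes the thymus leukemia antigen of intestinal epithelium, had log2 signals of 8.42 and 8.91 in wild type and 10.55 and 10.46 in deleted cultures. Both deleted cultures lay above both wild-type ones. The difference was 1.84 (SE 0.25, limma adjusted p 0.134), 3.58-fold. The LOC633417 probe lies beside it at chr17:36323454-36323516 (minus) of mm9. It read 8.72 and 9.03 against 11.97 and 11.39, a difference of 2.81, again with no overlap. By the ratio these differences were 0.41 and 1.13.

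H2-Q10, a secreted class I gene, was read differently by its probes. The brightest had log2 signals of 13.99 and 14.25 in wild type and 14.90 and 14.82 in deleted cultures, a difference of 0.74. Of the other probes with values on all 4 arrays, 1 read 11.94 and 11.78 against 14.11 and 13.48, a difference of 1.94, and 1 read 10.19 and 10.27 against 12.06 and 11.73, a difference of 1.67. The probe at 1.94 is the one that shares 27 of 30 bases with H2-Bl. H2-Q2 was likewise at 0.26 on its brightest probe, with overlapping groups, and at 1.34 on its second. That second H2-Q2 value had the other sign, -0.45, by the ratio.

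The other class I genes had smaller differences. H2-Q8 read 8.13 and 7.69 in wild type and 9.08 and 8.45 in deleted cultures, a difference of 0.86 that was -0.13 by the ratio. H2-Q5 read 13.68 and 14.37 against 14.51 and 14.70, so the groups lay close together, with a difference of 0.57. H2-D1 read 14.28 and 14.43 against 14.94 and 14.65, a difference of 0.44. H2-K1 was at 0.14, H2-T22 at 0.26 and H2-Q7 at 0.22. H2-T23 was at 0.34 and H2-Q1 at 0.14, with ratios of -0.06 and -0.31, and H2-M3 was at -0.18 with a ratio of 0.27. Over the 13 class I genes the median was 0.34, by slide 0.51 and 0.27, and without the second wild-type culture it was 0.52.

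**Figure D3:**
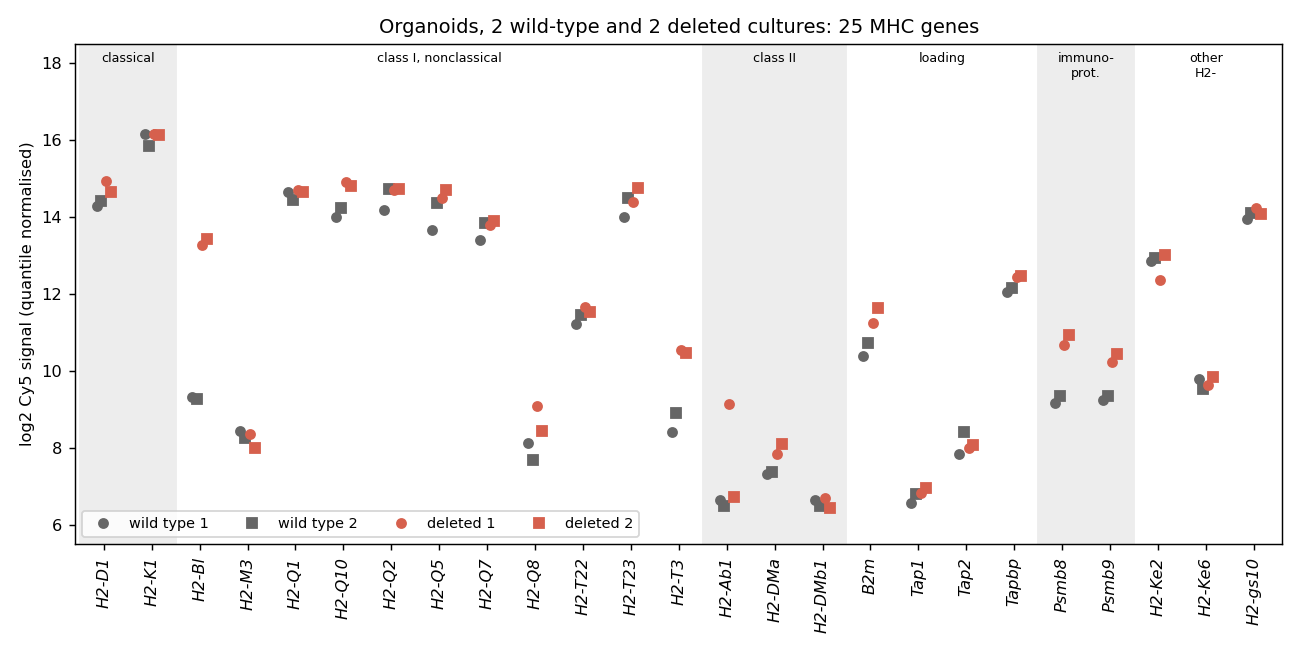
Log2 Cy5 signal after quantile normalisation (vertical axis) in the 2 wild-type (grey) and 2 deleted (red) organoid cultures for the 25 tested genes, grouped by class, with circles for the first and squares for the second culture. Heights of different genes are not compared, since each has its own probe. The red symbols stand far above the grey ones for H2-Bl (a difference of 4.04) and clearly above for H2-T3, Psmb8, Psmb9 and B2m, and for H2-Ab1 in 1 of the 2 deleted cultures.

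Of the peptide supply genes the immunoproteasome subunits and the light chain had the largest differences. Psmb8 had Cy5 signals of 577 and 653 in wild type and 1637 and 1977 in deleted cultures. The groups did not overlap, with a difference of 1.55 (SE 0.23, limma adjusted p 0.144) and 1.18 on the second probe. Psmb9 went from 611 and 657 to 1214 and 1401, a difference of 1.04. B2m went from 1335 and 1693 to 2440 and 3175, a difference of 0.89, on its brightest probe with usable spots on all 4 arrays. A brighter B2m probe without a usable spot in the second deleted culture differed by 0.38, and another by 0.33. On the probes tested, both genes were higher in each deleted culture than in each wild-type culture, and by the ratio the 3 differences kept their sign, at 0.90, 0.50 and 0.60. Tapbp was at 0.34 (ratio -0.21), Tap1 at 0.21, with 1 of 2 wild-type arrays above background, and Tap2 at -0.09. The median of the 6 was 0.61.

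The 4 arrays lay on 2 slides, each with 1 wild-type and 1 deleted culture. With slide as a block, 336 genes passed an adjusted p of 0.05 in limma, and 5 of them were members: H2-Bl at 0.000245, H2-T3 at 0.00600, Psmb8 at 0.00650, Psmb9 at 0.0301 and B2m at 0.0481. The sizes of the differences were the same, and H2-Bl was at 3.93 and 4.15 within the 2 slides. With all probes fitted separately, both overlapping H2-Bl probes passed (adjusted p 0.0106).

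Class II was barely detected in these cultures. The summed signal of 10 class II genes, without Cd74, was 848.5 to 872.7 in wild type and 975 to 1372 in deleted cultures. At most 2 of the 10 were well above background on any array, so much of the sum lies near background. H2-Ab1 read 568 in the first deleted culture and 107 in the second, with 99.9 and 90.9 in wild type, where it was not well above background. Set against its own dim wild-type signal, its mean was at least 2.59-fold higher in deleted cultures (log2 difference 1.37, limma adjusted p 0.727), and this rests on the first deleted culture. A second H2-Ab1 probe read 187 in that culture, against 78.9 to 81.6 in the others. H2-DMa was at 0.62, but -0.17 by the ratio, and H2-DMb1 at 0.01 from a probe not above background in wild type. Cd74 had signals of 306.7 and 229.0 in deleted cultures and 320.5 in the 1 wild-type culture with a usable spot. Ciita and Nlrc5 were not well above background. Of H2-Ke2, H2-Ke6 and H2-gs10, at -0.22, 0.08 and 0.13, none stood apart.

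Some immune cell markers were above background in these cultures, 6 of 7 for leukocytes, 9 of 14 for myeloid and dendritic cells and 3 of 9 for B cells, and their part in these values was not tested. The median difference was -0.02 over 5 leukocyte markers, with Lcp1 at -0.72 and Coro1a at -0.08, and 0.05 over 8 myeloid and dendritic markers, with Tyrobp at 0.00 and Csf1r at 0.27. Of 14 T cell markers 5 were tested, 0 had an unadjusted p under 0.05 as higher, and the median was 0.02. The list's summed signal was 1547 to 2232 in wild type and 1659 to 2232 in deleted cultures. Cd3d, Cd8a, Gzma, Ms4a1, Cd79a, Itgax and Ptprc were not above background on any of these arrays. Of 15 type I interferon genes 2 had an unadjusted p under 0.05, Oas1a at 0.83 and Oasl2 at 0.72, and of 14 genes of the interferon gamma axis 0 did, with Igtp at 0.69. Among further class I pathway genes Tapbpl, a relative of Tapbp, was at 0.73 as 1 of 11 with such a p, and Canx was at 0.46. Of 6 further class II pathway genes 0 had one, the highest being Ctsl at 0.62.

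Withdrawal of R-spondin for 1 day was measured in 1 culture each way, so there is no replicate check and no test. Most class I values were higher without R-spondin, H2-Bl most of all. On their brightest probes class II genes, Psmb8 and the coactivators were within 0.31 log2 units of the culture with R-spondin. Other probes of Psmb8 and H2-Oa lay outside that range, at 0.40 and -0.38. Of 29 members measured 24 were above 0, with a median of 0.28 against 0.05 over all 17638 genes. A difference of 1 log2 unit or more upward was reached by 2 members, against 5.51% of all genes. The class I median was 0.57 over 13 genes and the class II median 0.19 over 6.

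H2-Bl read 851 with and 3599 without R-spondin, a log2 difference of 2.08, or 4.23-fold, and 1.80 by the ratio. Its overlapping probe gave 2.02 and its remaining probe 1.18. The LOC633417 probe beside H2-T3 read 306 and 1278, a difference of 2.06, whereas the H2-T3 probe itself had no usable spot without R-spondin. H2-Q1 read 18848 and 51788, a difference of 1.46, but it was -0.28 by the scanner's own processed ratios. That value is therefore not settled by these data.

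Lesser differences ran through class I. H2-T22 read 4006 with and 7604 without R-spondin, a difference of 0.92, with 0.78 and 1.39 on its other probes. H2-D1 read 34002 and 56618, a difference of 0.74, and 0.15 on its second probe. H2-Q7 read 17940 and 29866, also 0.74. H2-Q2 read 32953 and 54100, a difference of 0.72. All 4 genes were higher without R-spondin by both the Cy5 signal and, where measured, the ratio. H2-T23 was at 0.57, H2-Q10 at 0.44, H2-D4 at 0.39, H2-Q5 at 0.30, H2-M3 at 0.26 and H2-K1 at 0.18, and H2-Q8 was at -0.14. Other H2-Q10 probes read 1.96, 1.49 and 0.76, the first being the one that shares bases with H2-Bl.

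**Figure D4:**
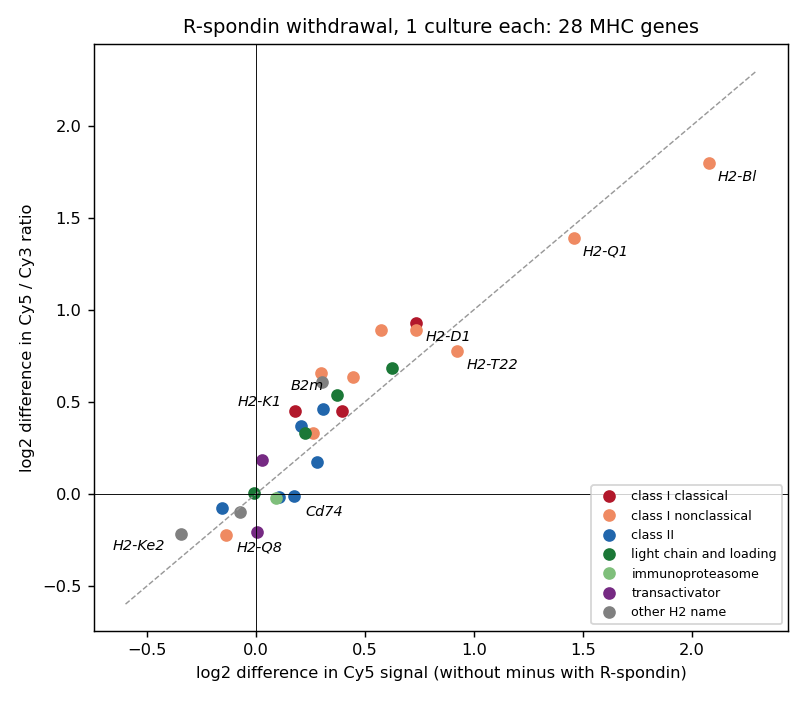
Log2 difference without minus with R-spondin in the Cy5 signal (horizontal axis) against that in the Cy5 over Cy3 ratio (vertical axis), 1 culture each, for the 28 members with both values, coloured by class. Points lie along the dashed line of equal values, H2-Bl farthest out at 2.08 and 1.80, and class II and coactivators lie near the origin.

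Outside the heavy chains Tapbp was at 0.62 and B2m at 0.37, with 0.67 and 0.73 on the other B2m probes. Tap2 was at 0.22, Psmb8 at 0.09 (ratio -0.02) and Tap1 at -0.01. The Psmb8 probe that was read in the deletion organoids was at 0.40 (ratio 0.17). Class II values were 0.31 for H2-DMb1, 0.28 for H2-Ab1, 0.21 for H2-DMa, 0.18 for Cd74 (ratio -0.01), 0.11 for H2-Eb1 (ratio -0.02) and -0.16 for H2-Oa. Nlrc5 was at 0.03 and Ciita at 0.00, the latter dim with R-spondin. H2-gs10 was at 0.30, H2-Ke6 at -0.07 and H2-Ke2 at -0.34. Of 12 further class I pathway genes measured 10 were above 0, with a median of 0.24, from Cd1d1 at -0.71 to Tapbpl at 1.17. Of 8 further class II pathway genes 5 were above 0, with a median of 0.13. They ran from Lgmn at -0.45 to the endosomal protease Ctss at 1.17, with the class II promoter factor Rfxank at 1.14. A rise of 1 log2 unit was reached by 1 of the 12 and 2 of the 8, against 5.51% of all genes. The highest of 15 interferon gamma axis genes was Ido1 at 1.54, and the list median was 0.29. The highest of 18 type I genes was Oasl1 at 1.30, and the list median was 0.53. In each interferon list 1 gene reached 1 log2 unit upward, against 5.51% of all genes. The median of 9 T cell markers was 0.04, and the highest, Thy1, was at 0.51.

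Set side by side, H2-Bl was the member with the largest difference in both organoid settings and an ordinary one in crypts. It was at 0.28 in crypts, 4.04 in deleted organoids and 2.08 without R-spondin. In 1 limma fit over 13550 genes the deletion effect in organoids exceeded that in crypts by 3.76 (SE 0.33, adjusted p 0.0148), where 7 genes passed in all. For H2-T3 the difference between the 2 settings was 1.55 (adjusted p 0.234) and for Psmb8 1.22 (adjusted p 0.442), and for H2-Eb1 it was -1.38 (adjusted p 0.625), with H2-Eb1 dim in organoids. These comparisons share no array, and crypts and organoids were measured on different scales, a ratio of 2 samples and a Cy5 signal.

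**Figure D5:**
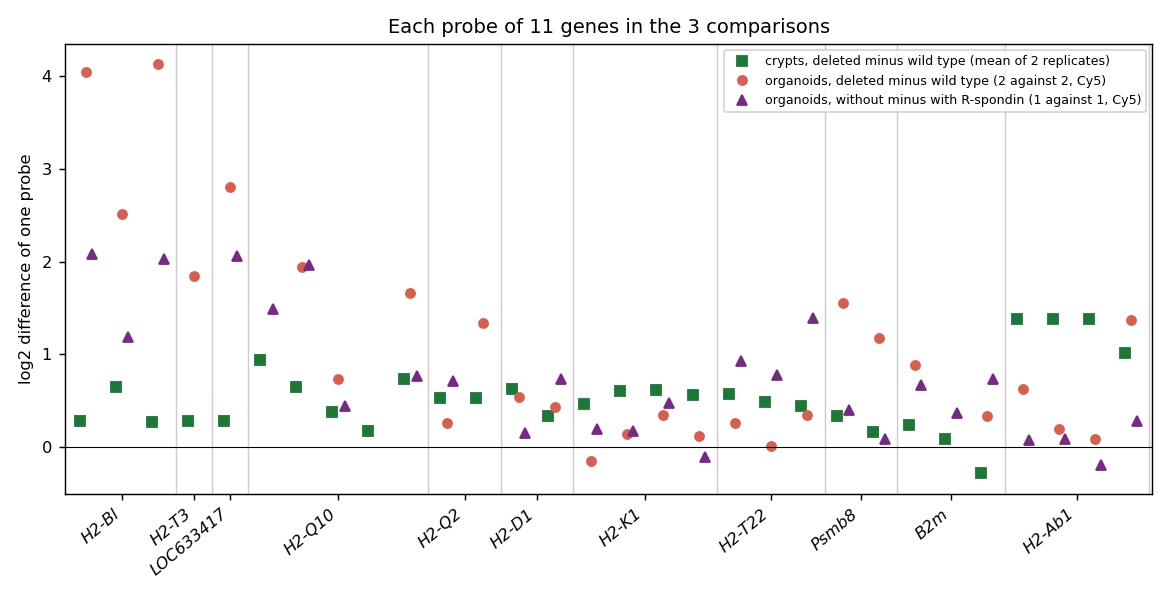
Log2 difference of each single probe (vertical axis) for 11 genes, with crypts as squares, deletion organoids as circles and R-spondin withdrawal as triangles. A symbol is left out where a spot was unusable. The 3 H2-Bl probes and the LOC633417 probe are high in both organoid settings and low in crypts, whereas the 4 H2-Ab1 probes are above 1 in crypts.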

How the data were processed

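RNA of crypts and organoids was measured on 10 Agilent two-colour arrays. The deposited scanner files hold spot intensity per dye and a log10 ratio of Cy5 over Cy3, made with Agilent Feature Extraction, version 8.5.1.1 per the submitters' processing notes and 10.5.1.1 per the file headers. The deposited value table holds log10 ratios and served as an alternative. Mean and background intensities were corrected with normexp (offset 50) in limma 3.58.1 (R 4.3.3), and control and outlier spots were left out. Crypt ratios were normalised by loess within arrays, turned to deleted over wild type, averaged over each dye swap and tested against 0 (2 replicates). Organoid Cy5 signals were quantile normalised and deleted cultures compared with wild-type ones (2 against 2, all p-values two-sided), because the Cy3 channel of those arrays was faulty. P-values were adjusted by Benjamini-Hochberg over all genes tested at 0.05. A gene was read by its brightest probe with usable spots in every sample. R-spondin withdrawal had 1 culture each way and no test, so differences of 1 log2 unit were counted. The number of arrays limits the precision, and the labels call the crypt samples and the second culture of each deletion organoid group biological replicates, without saying whether they came from separate mice.

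The members and the other gene lists were chosen with earlier results of these data known. Members called by the test were described with every value, as were the 6 class I and 4 class II or loading members with the smallest unadjusted p and the 6 largest differences without R-spondin. The tests were tested on simulated data. The alternatives, 39 in all, changed the background correction, normalisation, filter, probe rule, dye, slide block and samples. RefSeq promoters (GRCm38.p6) were matched by symbol.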

Additional observations from a re-analysis of the deposited data

Results flagged for a closer look

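The effect of deletion on H2-Bl differed between organoids and crypts. It was 4.04 log2 units in organoids and 0.28 in crypts, and the difference of 3.76 had an adjusted p of 0.0148 in a limma fit over both experiments. All 3 H2-Bl probes were higher in the deleted cultures, at 4.04, 4.12 and 2.51, and in crypts they were at 0.28, 0.28 and 0.65. The 2 experiments differ in tissue, in the Cre line and in how the arrays were read, and these cannot be told apart.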

How the results depend on the processing

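No member was called in crypts, but 1 was with the processed signals or the value table, 3 with the deleted RNA in Cy3 only and 0 to 1 when a replicate was left out, with the lone replicate taken to vary like the organoid cultures. The crypt class I median was 0.28 with no filter on dim probes and 0.53 in Cy3 only. In organoids 0 members were called without the filter (H2-Bl at limma adjusted p 0.060) or by the Cy5 over Cy3 ratio. With processed Cy5 minus its 75th percentile 2 were called, and 5 with slide as a block, among 336 genes. When probes were fitted singly 2 member probes were called. The organoid class I median was 0.14 with no filter, 0.15 by the ratio, 0.51 within slide 1 and 0.24 to 0.52 when a culture was left out, and the class II median was -0.058 by the ratio. For R-spondin 1 member reached 1 log2 unit with processed signals or the value table and 4 with the mean over probes. The class I median was 0.28 with no filter and 0.93 with the 75th percentile, and the class II median 0.46 with processed signals or the value table and 0.44 with the percentile. H2-Q1 was at -0.28 with processed signals or the value table. A median was held to have moved if it changed by more than the replicate spread. A count moved if it changed from or to 0 or over 1.5 times. For R-spondin, which had no replicate, the spread between the organoid deletion slides was used. Of the member counts and class medians under alternatives, without the organoid class II median, 23 moved and 74 did not. The crypt class II median, whose spread was 0.92, is among the latter, although it was 0.48 without replicate 1 and 1.61 without replicate 2. Counts over all genes ran from 0 to 565 in crypts, 0 to 336 in organoids and 777 to 1737 for R-spondin. The median of all genes moved to 0.17 in organoids and 0.12 for R-spondin with processed signals, and to 0.13 for R-spondin with the percentile. Crypt ratios pair deleted and wild type on each array, and the organoid labels number no pairs, so cultures were paired only by slide. The causes were not tested.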

Other observations

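The LOC633417 probe, which an older annotation of the array names as an H2- gene, was at 0.29 in crypts, 2.81 in deleted organoids and 2.06 without R-spondin. The EG547347 probe, the other one so named, was at 0.40 in crypts, 0.64 in deleted organoids and 0.83 without R-spondin.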
